A study of Mus musculus with 2 samples.

Results

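The binding of Rfx6 at 7 granin and dense-core granule genes was described in Min6b1 cells, a mouse pancreatic β cell line. The genes were chosen by name: Chga, Chgb, Scg2, Scg3 and Vgf, which encode granins, and Ptprn and Ptprn2, which encode transmembrane proteins of the granule. They are 7 of the 22367 protein-coding genes of the GENCODE M1 annotation of the NCBIM37 (mm9) mouse genome, and all 7 were found there. A peak was assigned to a gene when its summit, the position of highest signal, lay in the gene or within 50 kb of it. By this rule 49 of the 23308 peaks in the list belonged to the 7 genes, and no peak belonged to more than 1 of them.

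Both libraries came from Min6b1 cells grown in DMEM with 25 mM glucose and 15% serum. In the 3HA-Rfx6 group, cells received 24 µg of a pCMV-Tag2A-3HA-Rfx6 plasmid by lipofection and were harvested 2 days later, and chromatin was precipitated with the anti-HA antibody 12CA5 and sequenced (ChIP-seq). The control was the same anti-HA precipitation from cells labelled only as Min6b1, so the presence of the tagged protein and the transfection itself cannot be told apart. The bound protein was made from a plasmid under a CMV promoter in a cell line, which limits these cells as a model of Rfx6 at its own level in an islet. RNA was not measured in this experiment, so the markers of β cells could not be checked. There was 1 library per condition. Every value below therefore has no replicate error, no test was applied, and intervals on reads (exact Poisson, 95%) or on shares (Wilson, 95%) cover counting error only.

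Dense-core granules are the vesicles in which endocrine and neuroendocrine cells store peptide hormones, in β cells mainly insulin, until a stimulus releases them. Granins are acidic soluble proteins of the regulated secretory pathway that aggregate with the hormones as granules form and that are also cut into peptides. Ptprn and Ptprn2, known as IA-2 and IA-2β, span the granule membrane, have a phosphatase-like domain that has lost most of its catalytic activity, and are autoantigens in type 1 diabetes. Rfx6 is a transcription factor of the RFX family, whose members bind the X-box, a pair of inverted arms with a short spacer. It is needed for the formation of most islet cell types.

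Of the 7 genes, 6 had at least 1 summit in the gene or within 50 kb, where 67.8% of all protein-coding genes had one. Scg2 was the gene without a summit. The peaks were unevenly spread, with 22 at Ptprn2, 12 at Chga, 6 at Ptprn, 4 at Chgb, 3 at Scg3 and 2 at Vgf. Summits inside the gene itself were found in 3 of the 7 genes, Chga, Scg3 and Ptprn2, beside 31.3% of all protein-coding genes. Chga was the only member with a summit within 1 kb of its start (20.1% of protein-coding genes), and Chga, Chgb and Vgf had a summit in the 10 kb upstream (17.3%). With 7 genes, these counts were not set apart from the background by any test.

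Of the 49 summits, 24 lay in an intron of the member and 1 in an exon, 7 lay upstream and 17 downstream. The member was the nearest protein-coding gene for 30 of them, and for the remaining peaks another gene was closer, so assignment by distance alone does not say which gene a peak belongs to.

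The sequences under the peaks were read from the NCBIM37 genome. The strict X-box searched here was GTNNCC, with a purine at the fourth letter, followed by 0 to 3 bases and NGNAAC, with a purine at the first letter and a pyrimidine at the third, on both strands and within the 200 bp around the summit. It was found at 6 of the 49 peaks, 2 at Chga and 4 at Ptprn2. These 6 are shown because they carry the full element, in the direction of the gene, with the X-box in capitals.
Chga, upstream peak with 95 reads, chr12:103770860-103770952 (plus strand): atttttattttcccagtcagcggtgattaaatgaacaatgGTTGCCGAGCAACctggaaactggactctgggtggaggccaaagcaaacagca
Chga, intron 4, peak with 160 reads, chr12:103798988-103799082 (plus strand): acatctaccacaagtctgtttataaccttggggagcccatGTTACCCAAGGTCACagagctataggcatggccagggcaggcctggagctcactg
Ptprn2, intron 3, peak with 45 reads, chr12:118044107-118044200 (plus strand): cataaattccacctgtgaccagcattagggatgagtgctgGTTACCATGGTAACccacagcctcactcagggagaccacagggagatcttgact
Ptprn2, intron 11, peak with 54 reads, chr12:118154772-118154864 (plus strand): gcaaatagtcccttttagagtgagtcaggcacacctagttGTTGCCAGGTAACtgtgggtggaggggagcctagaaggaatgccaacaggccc
Ptprn2, intron 17, peak with 57 reads, chr12:118478648-118478739 (plus strand): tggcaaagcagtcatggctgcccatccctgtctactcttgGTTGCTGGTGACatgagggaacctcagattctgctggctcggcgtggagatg
Ptprn2, downstream peak with 112 reads, chr12:118563655-118563747 (plus strand): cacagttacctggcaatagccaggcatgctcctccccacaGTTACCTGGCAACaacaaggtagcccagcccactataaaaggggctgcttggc

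The X-box in intron 3 of Ptprn2 is its own reverse complement over all 14 letters, with a spacer of 2 bases. It lay 45 bp from the summit of a peak with 45 reads (95% 32.8 to 60.2), and 85.3% of all peaks held at least as many reads. The element upstream of Chga lay 22 bp from its summit, and that in intron 4 of Chga lay 85 bp from its summit, close to the edge of the window searched. The 6 peaks with a strict X-box held 45 to 160 reads with a median of 76, while the 43 without it held 31 to 340 with a median of 85. Among all peaks the median was 78 reads for the 1497 with a strict X-box and 72 for the others.

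At the peak with the most reads of each of the 6 genes, the best match to the X-box within this window was 1 or 2 letters off. By fold enrichment the order differs, and the Chga peak with the highest, 18.8, is the upstream peak with the strict X-box shown above. The stretches under the peaks with the most reads are shown with the best match in capitals, so that they can be read beside the full element.
Chga, downstream peak with 340 reads, 2 letters off, chr12:103839731-103839825 (plus strand): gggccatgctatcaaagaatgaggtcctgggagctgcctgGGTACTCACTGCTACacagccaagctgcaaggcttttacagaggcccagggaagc
Chgb, downstream peak with 120 reads, 2 letters off, chr2:132633584-132633677 (plus strand): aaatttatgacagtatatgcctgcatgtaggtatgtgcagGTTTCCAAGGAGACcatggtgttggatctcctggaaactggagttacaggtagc
Scg3, downstream peak with 79 reads, 2 letters off, chr9:75458588-75458679 (minus strand): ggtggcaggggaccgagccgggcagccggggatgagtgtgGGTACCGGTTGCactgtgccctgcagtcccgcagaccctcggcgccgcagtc
Vgf, downstream peak with 89 reads, 1 letter off, chr5:137522055-137522148 (plus strand): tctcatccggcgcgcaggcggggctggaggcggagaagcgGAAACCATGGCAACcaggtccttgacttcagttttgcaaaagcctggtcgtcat
Ptprn, upstream peak with 165 reads, 2 letters off, chr1:75279795-75279888 (minus strand): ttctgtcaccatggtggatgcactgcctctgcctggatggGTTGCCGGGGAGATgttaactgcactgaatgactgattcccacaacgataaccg
Ptprn2, intron 2, peak with 321 reads, 2 letters off, chr12:117947412-117947505 (plus strand): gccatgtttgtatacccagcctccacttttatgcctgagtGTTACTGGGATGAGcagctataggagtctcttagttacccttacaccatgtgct

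Chromogranin A, encoded by Chga (ENSMUSG00000021194.5, chr12:103793179-103803237, plus strand, 10.1 kb), is the granin most widely used as a marker of endocrine cells. Its locus held 12 summits spread over 76.3 kb. Some lay upstream of the gene, some inside it, and the others downstream, towards and within Itpk1, which encodes an inositol phosphate kinase.

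Upstream, a peak 22.2 kb before the start held 95 reads (95% 76.9 to 116), and a smaller peak 3.59 kb before the start held 35 reads (24.4 to 48.7). Their fold enrichments over the background were 18.8 and 5.41. Both had Chga as the nearest protein-coding gene. Inside the gene, a summit 0.152 kb after the start, in the untranslated part of exon 1, had 96 reads and a fold enrichment of 7.53. The peak in intron 2 held 211 reads (183 to 241) with a fold enrichment of 17.4, and that in intron 4 held 160 reads (136 to 187) with a fold enrichment of 16.5. The promoter peak of Chga thus held fewer reads than both intronic peaks, and its interval (77.8 to 117) overlapped with neither. It was also narrower, with 1856 bp beside 2921 and 2237 bp, and reads were not adjusted for width. The 3 peaks in the gene held 467 reads together.

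Downstream of Chga, the summit 12.9 kb from its start had 173 reads and lay 0.693 kb from Itpk1, between both genes. The other 6 downstream summits lay in introns of Itpk1. They held, in order from Chga, 233, 53, 107, 57, 340 and 46 reads. The peak with 340 reads (305 to 378), in intron 4 of Itpk1 and 46.6 kb from the Chga start, was the highest of all 49, and 1.72% of all peaks held as many reads or more. Its fold enrichment of 11.4 was below that of 5 other Chga peaks, so reads and fold enrichment order the Chga peaks differently.

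Peaks at Chga were also wide, since 6 of the 12 covered at least 2 kb, against 7.09% of all peaks. Together the 12 peaks covered 20% of the 110 kb formed by the gene and 50 kb on each side. This window held 109 summits per Mb, while the 1 Mb on either side of it held 19 per Mb and chromosome 12 as a whole 8.66 per Mb. For 7 of the 12 summits Itpk1 was the nearest gene and for 5 it was Chga. Itpk1 (136 kb) had 9 summits inside it, beside a median of 1 among genes of similar length, of which 4.5% had at least as many.

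**Figure D1:**
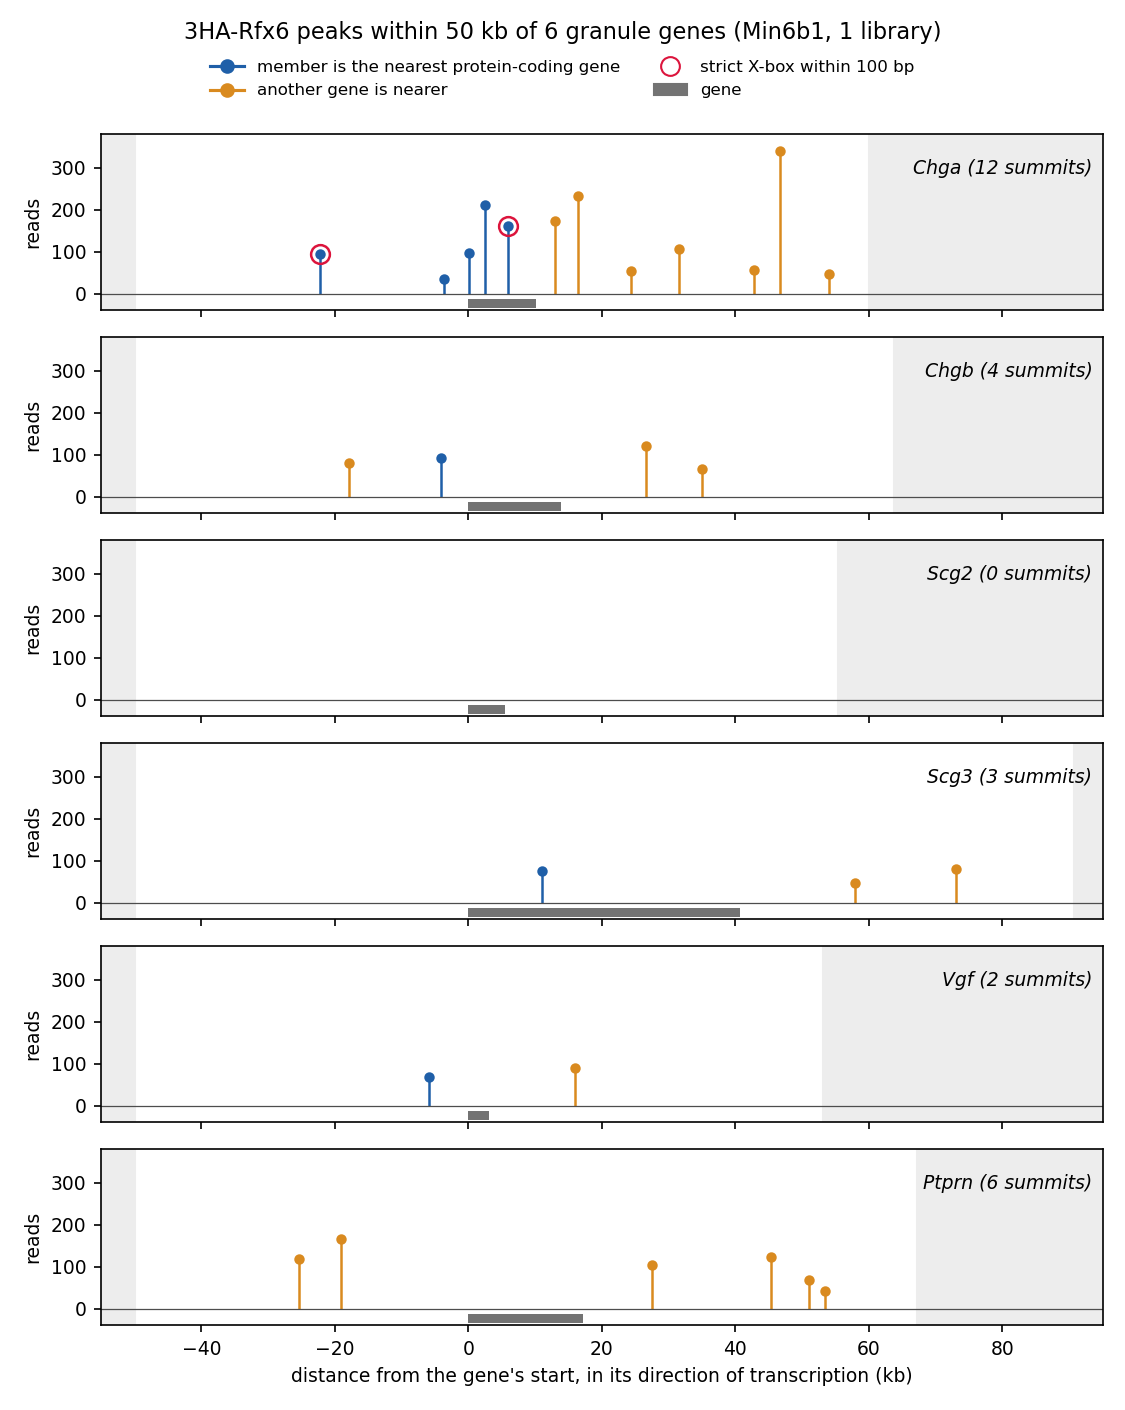
Reads of each peak (y axis) against the distance of its summit from the gene's start in the direction of transcription (x axis, kb) for 6 of the 7 genes in the 1 3HA-Rfx6 library. Grey bars are the genes, grey areas lie beyond 50 kb, blue marks a summit whose nearest protein-coding gene is the member, orange a summit nearer to another gene, and red rings a strict X-box within 100 bp of the summit. The 12 summits of Chga lie close together from 22.2 kb before its start, Scg2 has none, and all 6 summits of Ptprn are nearer to other genes.

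Chromogranin B, the granin encoded by Chgb (ENSMUSG00000027350.7, chr2:132607014-132620815, plus strand, 13.8 kb), had 4 summits near it and none inside. The peak 4.15 kb upstream of the start held 92 reads (74.2 to 113) with a fold enrichment of 8.2, and Chgb was its nearest gene. A peak 17.8 kb upstream had 81 reads and lay 12.4 kb from 1110034G24Rik. Downstream, a peak in intron 8 of Trmt6, which encodes a subunit of a tRNA methyltransferase, held 120 reads (99.5 to 143) and had the highest fold enrichment of the 4, 24.2. The last, with 65 reads, lay in the untranslated exon 1 of Mcm8, a gene of DNA repair, 146 bp from a transcript start. The intervals of the 92 and 120 reads overlapped, which does not show that the counts were equal. By fold enrichment the peak nearest to Chgb had 8.2 and the highest peak 24.2.

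Secretogranin II, encoded by Scg2 (ENSMUSG00000050711.5, chr1:79431244-79436665, minus strand, 5.42 kb), is the precursor of the peptide secretoneurin. No summit lay in it or within 50 kb. The nearest was 131 kb away, with 126 reads and a fold enrichment of 19.3. No summit was found within 100 kb either. An empty window was common for a gene of this size, since 35.5% of the 200 protein-coding genes nearest in length also had no summit. Its window held no other protein-coding gene, beside a median of 3 for these 200 genes. The list holds only peaks past the cutoff of 1e-05, so weaker signal at Scg2 was not detectable in it.

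Secretogranin III, encoded by Scg3 (ENSMUSG00000032181.6, chr9:75491071-75531803, minus strand, 40.7 kb), binds chromogranin A and cholesterol at the granule membrane. Its intron 6 held a peak 11 kb from the start, with 75 reads (59 to 94) and a fold enrichment of 12.9. The other 2 peaks were downstream at the starts of other genes. The peak with 47 reads was in the coding exon 1 of Lysmd2, 283 bp from a transcript start, and that with 79 reads in intron 1 of Tmod2, which encodes a cap protein of actin filaments, 420 bp from a start. The Scg3 peak thus had the highest fold enrichment of the 3, beside 5.65 and 9.42, but not the most reads.

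Vgf (ENSMUSG00000037428.8, chr5:137506165-137509221, plus strand, 3.06 kb) encodes a granin first known as a gene induced by nerve growth factor. It had 2 summits and none inside. The peak 5.86 kb upstream held 67 reads (51.9 to 85.1) with a fold enrichment of 10.6, and Vgf was its nearest gene. The peak 15.9 kb after the start held 89 reads (71.5 to 110) and lay 94 bp from Ap1s1, an adaptor protein gene. The intervals of both peaks overlapped.

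Ptprn (ENSMUSG00000026204.8, chr1:75243616-75260783, minus strand, 17.2 kb), the gene of IA-2, had 6 summits within 50 kb, none inside it and none for which it was the nearest gene. Upstream, peaks with 117 reads (25.3 kb from the start) and 165 reads (19 kb) were closer to Resp18, which encodes another protein of dense-core granules, and lay 11.1 and 4.82 kb from it. The second, with an interval of 141 to 192 and a fold enrichment of 25.4, was the highest at Ptprn. The 4 downstream peaks lay at Dnajb2 (untranslated exon 1, 104 reads), Tuba4a (intron 1, 122 reads) and Stk16 (coding exon 6 with 67 reads, and 16 bp outside the gene with 43 reads). Of these, 3 were within 1 kb of a transcript start of the gene they lay at. The window of Ptprn held 6 other protein-coding genes, beside a median of 3 for genes of its length, and their part in its count of peaks was not tested.

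Ptprn2 (ENSMUSG00000056553.7, chr12:117724193-118516640, plus strand, 792 kb), the gene of IA-2β, differed from Ptprn in that 21 of its 22 summits lay in its own introns and Ptprn2 was the nearest gene for all 22. Ptprn2 made up 792 kb of its window of 892 kb, which held 1 other protein-coding gene. Ptprn made up 17.2 kb of its window of 117 kb, which held 6 others. The part of gene length and neighbours in this difference was not tested. Introns were numbered on a transcript of 23 exons. Intron 1 held a peak of 255 reads (225 to 288) 4.67 kb from the start. Intron 2 held peaks of 52, 108, 43 and 321 reads, and intron 3 peaks of 112, 45 and 125 reads. These 8 peaks of the first 3 introns thus ranged from 43 to 321 reads.

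Further in, intron 5 held a peak of 74 reads and intron 11 peaks of 54, 274, 31 and 59 reads. The 5 peaks of intron 12 held 65, 39, 92, 54 and 85 reads, those of intron 14 held 91 and 46, and that of intron 17 held 57. The last summit lay 47 kb downstream of the gene, with 112 reads. No summit in the gene was within 1 kb of a transcript start.

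By reads, the peaks with 255, 274 and 321 stood out from the other 19, of which the highest had 125. Their intervals, 225 to 288, 243 to 308 and 287 to 358, lay above the 104 to 149 of that peak. Their fold enrichments were 23.1, 24.5 and 25.4, close to the 22.4 of the peak with 125 reads. They were also wider, with 1705, 2527 and 3094 bp beside 1183 bp, and reads were not adjusted for width. Within the 200 bp around the summit none of the 3 had a strict X-box and all had a best match 2 letters off. The peak with 321 reads held a strict X-box elsewhere in its 3094 bp. The 4 peaks with a strict X-box around the summit held 45, 54, 57 and 112 reads. The median over the 22 peaks was 69.5 reads, near the median of 73 over all peaks.

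**Figure D2:**
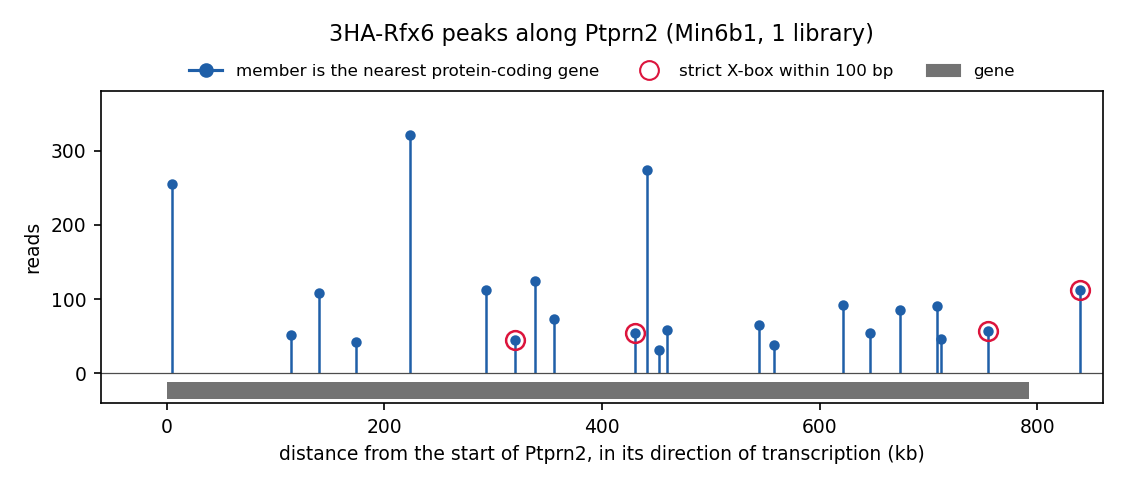
Reads of the 22 peaks of Ptprn2 (y axis) against the distance of their summits from its start (x axis, kb) in the 1 3HA-Rfx6 library. The grey bar is the gene and red rings mark a strict X-box within 100 bp of the summit. The peaks with 255, 321 and 274 reads stand above the others, and the 4 ringed peaks hold at most 112 reads.

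A longer gene has a wider window in which summits are counted, so each gene was set beside the 200 protein-coding genes nearest to it in length. Chga had 12 summits where these genes, of 9.87 to 10.2 kb, had a median of 1. At least 12 were found in 2 of the 200 (1%, 95% 0.275 to 3.57), and in 1.42% of all protein-coding genes. Ptprn2 had 22 where genes of 463 to 1106 kb had a median of 2. Again 2 of the 200 (1%) had at least as many, and over all protein-coding genes 0.0984% did. Counted inside the gene, Chga had 3 summits (median 0, and at least 3 in 2% of the 200) and Ptprn2 had 21 (median 1, and at least 21 in 0.5%).

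The other members were closer to genes of their length. Ptprn had 6 summits beside a median of 2, with at least 6 in 12.5% of the 200 genes. Chgb had 4 beside a median of 2 (29.5% with at least 4), Scg3 had 3 beside 2 (40.5%) and Vgf had 2 beside 1 (49%). Scg2 was the only member below its median, 1. With peaks of a fold enrichment of at least 10 only, Chga kept 6 summits (0.5% of the 200 genes had at least 6), Ptprn2 10 (1.5%) and Ptprn 4 (3.5%). Chga and Ptprn2 thus ranked near the top of their length class, by counts from 1 library.

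**Figure D3:**
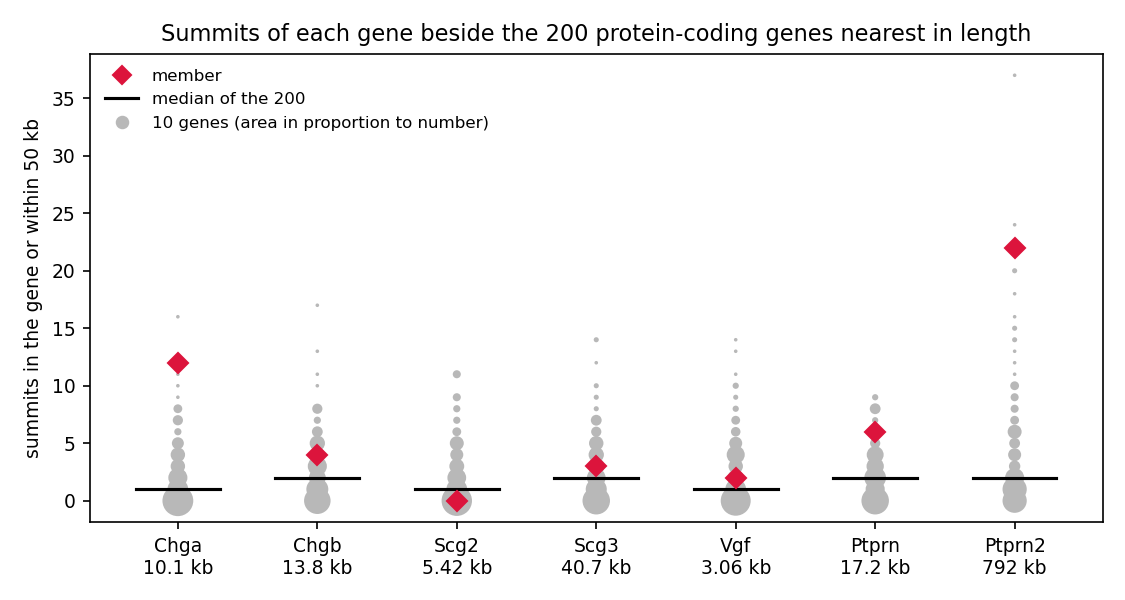
Number of summits in the gene or within 50 kb (y axis) for each of the 7 genes (red diamonds) and for the 200 protein-coding genes nearest to it in length (grey circles, area in proportion to the number of genes, black line at their median). Chga with 12 and Ptprn2 with 22 are each reached by 2 of the 200 genes, while Chgb, Scg3 and Vgf lie within the bulk of theirs.

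On the scale of summits per length, Ptprn2 held 26.5 per Mb inside the gene, against 8.66 per Mb on chromosome 12 and 8.83 per Mb over the chromosomes with peaks. The 1 Mb before its window held 9 summits and the 1 Mb after it 16.

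Ordered by the reads of their highest peak, the genes were Chga (340), Ptprn2 (321), Ptprn (165), Chgb (120), Vgf (89) and Scg3 (79). Of the neighbours in this order, only the intervals of Ptprn2 (287 to 358) and Ptprn (141 to 192) did not overlap. Overlap of the other intervals does not show that those counts were equal. The order mixes peaks in the member with peaks in other genes, since the highest peaks of Chga, Chgb, Scg3, Vgf and Ptprn were all nearer to another gene.

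As a set, the 49 peaks were close to the other peaks of the list. Their reads had a median of 85 (all peaks, 73), their fold enrichment a median of 10.1 (8.54), their width a median of 1162 bp (1196 bp) and the GC content around the summit a median of 52% (54%). The FDR given by MACS ranged from 1.78% to 5.9% and did not fall as the MACS score (the log10 p-value multiplied by minus 10) rose. The member peak with the highest score, 1387, had an FDR of 5.9%, and that with the lowest, 51.6, had 1.78%. Of the 49, 6 (12.2%) were among the peaks with the most reads, a class of 9.99% of all peaks, and these were the 3 highest peaks of Chga and of Ptprn2 each. Summits within 1 kb of a protein-coding transcript start made up 16.3% of the member peaks and 21.0% of all peaks. These 8 were at the start of Chga and at the starts of Mcm8, Lysmd2, Tmod2, Ap1s1, Dnajb2, Tuba4a and Stk16, so Chga was the only granule gene among them.

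The strict X-box was at 12.2% of the member peaks (6 of 49, 95% 5.73 to 24.2) and at 6.42% of all peaks (6.12 to 6.74), and in windows 1 kb to the right of all summits at 0.253%. The interval of the members included the share of all peaks in its range. A relaxed pattern, degenerate at most letters and with 1 to 3 bases between the arms, was at 46.9% of the member peaks and 45.9% of all. It does not include every strict X-box, and 4 of the 6 member peaks with a strict X-box also held it. The best match differed from the strict X-box by 0 letters at 6 peaks, by 1 at 13, by 2 at 27 and by 3 or more at 3. At most 2 letters off were thus 93.9% of the member peaks, beside 82.4% of all peaks and 43.9% of the windows 1 kb away.

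**Figure D4:**
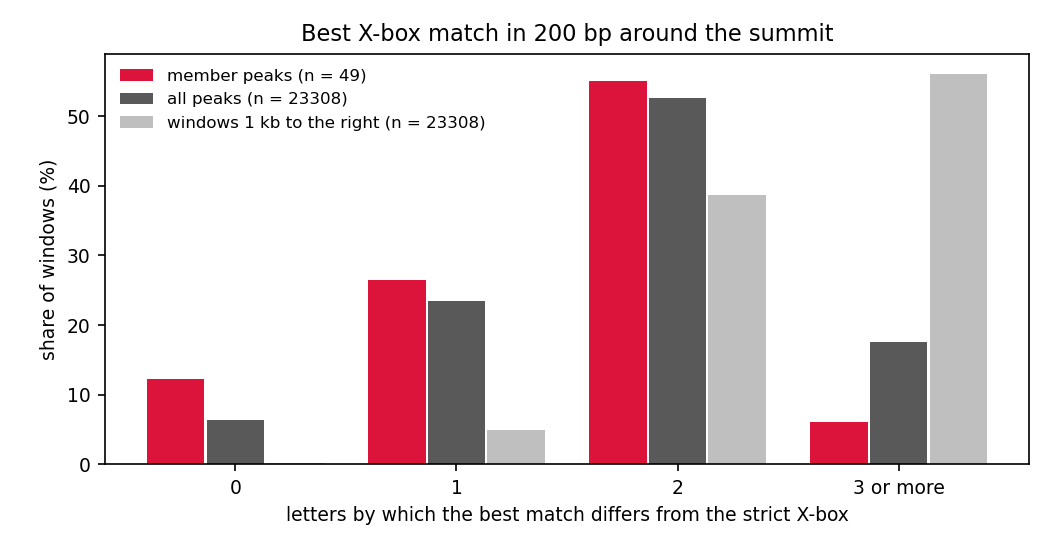
Share of windows (y axis, %) by the number of letters in which the best match within 200 bp differs from the strict X-box (x axis), for the 49 member peaks (red), all 23308 peaks (dark grey) and windows 1 kb to the right of all summits (light grey, 0.253% at 0 letters). Member peaks and all peaks have their highest bar at 2 letters, and the shifted windows at 3 or more.

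Single short motifs were searched in the same 200 bp, on both strands. GTTGCC, a common form of 1 arm of the X-box that can therefore overlap with it, was at 17 member peaks (34.7%) and at 26.8% of all peaks. TGACGTCA, the cAMP response element that is its own reverse complement, was at none of the 49 and at 0.287% of all peaks.

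Promoters, taken from RefSeq on the GRCm38.p6 assembly as 250 bases before to 50 after the start, were matched by symbol for 6 of the 7 genes, without Vgf. The cAMP response element is a known feature of granin promoters. TGACGTCA was in the promoters of Scg2 and Chgb, 68 and 72 bases before the RefSeq start, and in 1.79% of the 32851 promoters listed. These sites are shown because no summit lay on them, with the element in capitals.
Scg2 promoter, chr1:79440076-79440105 (minus strand): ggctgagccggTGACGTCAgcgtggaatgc
Chgb promoter, chr2:132781559-132781588 (plus strand): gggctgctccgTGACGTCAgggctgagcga
In NCBIM37 the nearest summits were 136 kb from the Scg2 site and 4.44 kb from the Chgb site. The GENCODE M1 starts, used for the distances of summits, differ from those of RefSeq. By them the Scg2 start lay within the stretch shown, and the Chgb stretch lay inside the gene. A strict X-box was in no promoter of the 6 genes and in 1.53% of all, and the relaxed pattern was found in none of the 6 genes' promoters and in 34.7% of all. GTTGCC was in 1 of the 2 Ptprn promoters listed and in 12.5% of all.

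Genes of other dense-core granule proteins, such as processing enzymes, transporters and proteins of granule formation and release, were counted in the same way. Of these 22 genes, 19 (86.4%) had a summit within 50 kb, beside 67.8% of all protein-coding genes. A summit inside the gene was found in 12, beside 31.3% of all protein-coding genes. Neither share of all genes was matched for gene length. More summits than the median of genes of their length were found at 13. The share of all protein-coding genes above such a median was not computed, so that count has no background. The 22 genes had a median of 3 summits, against 4 for the granin and Ptprn genes and 1 for all protein-coding genes. The 2 lists share peaks, since the highest peak of Resp18, with 165 reads, is also counted at Ptprn. Rab3a, a small GTPase of granule release, had the highest, with 695 reads and a fold enrichment of 71.3, but at 38.2 kb from its start and nearest to Mast3.

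Arfip1, which encodes an arfaptin, had 15 summits, of which 12 lay in the gene, annotated as 1391 kb long, and the highest held 455 reads. Syt7, a calcium sensor of exocytosis, had 12 summits, and the highest, with 306 reads, was nearest to Lrrc10b. No summit lay within 50 kb of Cadps2, Npy and Slc30a8, whose nearest summits were 676, 88.3 and 450 kb away. Scg2 was therefore not alone among granule genes in lacking a peak.

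**Figure D5:**
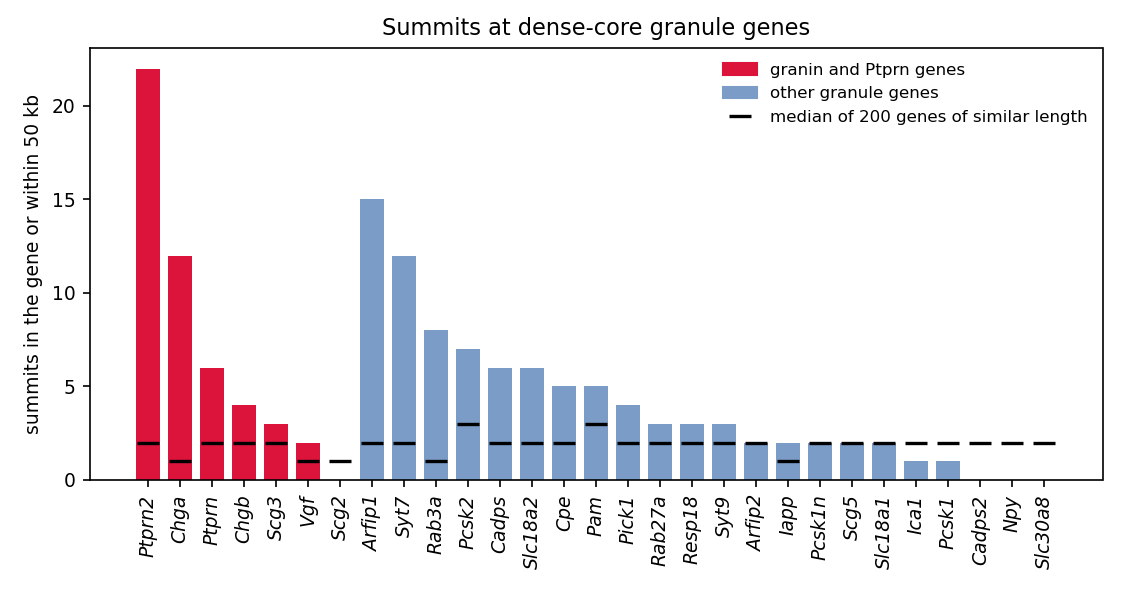
Number of summits in the gene or within 50 kb (y axis) for the 7 granin and Ptprn genes (red) and 22 other dense-core granule genes (blue), with the median of the 200 genes nearest in length as a black line. Ptprn2, Arfip1, Chga and Syt7 have at least 12 summits, and Scg2, Cadps2, Npy and Slc30a8 have none.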

How the data were processed

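Anti-HA ChIP-seq was performed on 3HA-Rfx6 transfected Min6b1 cells and on control Min6b1 cells, with 1 library each of single-end reads of 50 bases. The submitters' processing notes name CASAVA 1.8.2, Bowtie, MACS 1.4.2 and the mm9 build. Peaks were called by the authors on the 3HA-Rfx6 library against the control with a p-value cutoff of 1e-05, keeping at most 1 read per position. Reads per peak, as deposited, are unnormalized counts over the whole peak in the 3HA-Rfx6 library, not adjusted for its width. The deposited fold enrichment is a ratio to the background from the control and the local signal. The deposited score is the log10 p-value multiplied by minus 10, and the deposited FDR, in percent, comes from exchanging ChIP and control. MACS retained 33949757 of 49443917 reads (68.7%) of the 3HA-Rfx6 library and 3567375 of 16911298 (21.1%) of the control, so the background rests on 9.52-fold fewer reads. The control was used only through this calling.

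From the list, summits were placed on NCBIM37 with GENCODE M1 genes, no peak ended past its chromosome, and X-boxes were searched in 200 bp around each summit. The gene assignment and the motif search were tested on simulated data. The 7 genes, the 22 other granule genes and the alternatives were chosen with earlier results of these data known. All 7 genes are named with all of their peaks, as are the nearest genes of these peaks, and of the other granule genes the 3 with the highest peaks and those without a summit. The alternatives were peak sets cut by score, fold enrichment or FDR, other distances, and any base of a peak in place of the summit. Others were the nearest gene only, 100 or 500 genes of similar length, and other X-box patterns and windows. The best match by letters, GTTGCC, TGACGTCA and the summits per Mb were added after seeing the data. Computations ran in Python 3.11.15 (statsmodels 0.14.6, scipy 1.17.1, pandas 2.3.3, numpy 2.4.6, matplotlib 3.10.9).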

Additional observations from a re-analysis of the deposited data

How the results depend on the processing

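The number of genes with a summit, 6 of 7, was the same with the 50% of peaks of the highest scores, with a fold enrichment of at least 10, within 100 kb and with any base of the peak, and it was 5 within 10 kb or by the nearest gene. It was 3 inside the gene and 0 at an FDR of at most 1%, a setting that leaves 10 peaks in the whole list. The share of all protein-coding genes with a summit was 51.1% with the highest scores, 45.6% at a fold enrichment of at least 10 and 76.7% within 100 kb. It was 47.1% within 10 kb, 31.3% inside the gene and 0.125% at an FDR of at most 1%. At the member peaks the FDR did not fall as the score rose, so the FDR setting is not a cut for stronger peaks there. The 49 summits became 30 with the highest scores, 25 at a fold enrichment of at least 10, 0 at an FDR of at most 1%, 30 within 10 kb, 25 inside the gene and 30 by the nearest gene, and 63 within 100 kb. The 6 peaks with a strict X-box were set beside 23 with the relaxed pattern, of which 4 are among the 6. Among the peaks of the highest scores, 3 member peaks held a strict X-box, 10% of the member peaks there beside 7.03% of all peaks there. At a fold enrichment of at least 10 there were 2, where 8% of the member peaks and 8.65% of all peaks held it. In a window of 100 bp there were 4 (8.16% of the member peaks, 5.05% of all). In the whole peak there were 7 (14.3% of the member peaks, 8.87% of all). The 6 genes above the median of genes of similar length were 5 with 100 such genes, 6 with 500 and 3 inside the gene. The share of all protein-coding genes above the median of their own length class was not computed, so these counts have no background. Among the 6, Vgf and Scg3 were above it although 49% and 40.5% of their 200 genes had at least as many summits. For single genes, 28 of 56 alternatives stayed within 1.5 times the count and 28 did not. Most of the latter were lower counts, but within 100 kb Chgb rose from 4 to 7 and Vgf from 2 to 4.

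No paired analysis was possible because each condition had a single library and no result comes from a test. The shallow control, with 3567375 retained reads, limits the fold enrichment and the FDR. How a deeper control would change them was not tested.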
